A study of Rattus norvegicus with 4 samples.

Results

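Somatotrophs are the growth hormone cells of the anterior pituitary. They were selected on 3 measured values: cell barcodes had at least 15% of their unique molecular identifiers (UMIs, 1 per captured RNA molecule) from Gh1, the growth hormone gene, and had under 5% each from Prl (prolactin) and Pomc (the ACTH precursor). This rule gave 4467 somatotrophs among 20381 barcodes that held at least 1000 UMIs and 500 genes and at most 20% mitochondrial UMIs. The cells came from pituitaries of female Sprague Dawley rats aged 75 days and at mixed, unselected stages of the estrous cycle. Pooled posterior and pooled anterior lobes of 30 dissected glands gave a library each, and a pool of 30 undissected glands gave a single suspension, loaded on 2 lanes. The labels name no treatment or genotype. The posterior library held 405 somatotrophs, the anterior library 1345, and the whole-gland lanes 1421 and 1296. The posterior library also held 494 lactotrophs and 127 corticotrophs. Whether its hormone cells lay in the posterior lobe or in anterior tissue of the dissected piece cannot be told apart here.

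Growth hormone release is driven by GHRH from the hypothalamus, whose receptor Ghrhr acts through the stimulatory G protein and cyclic AMP, and by ghrelin through Ghsr. It is held back by somatostatin receptors and by feedback of growth hormone and IGF-1. Somatotrophs, lactotrophs and thyrotrophs share descent from precursors that need the transcription factor Pou1f1 (Pit-1).

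The share of somatotrophs among kept barcodes was 10.3% in the posterior library (95% exact binomial interval 9.36 to 11.3%), 23.7% in the anterior library (22.6 to 24.9%), 24.9% in whole-gland lane 1 (23.8 to 26.0%) and 25.6% in lane 2 (24.4 to 26.8%). These intervals cover counting error only, and each lobe had 1 library, so lobe shares were not tested. Median depth was 16438 UMIs per somatotroph in the posterior library and 9683, 9539 and 9664 UMIs in the anterior library and the 2 lanes. The libraries held 61981865 UMIs (posterior), 72754998 (anterior), 71490425 (lane 1) and 63820100 (lane 2) in all barcodes.

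Gh1, Prl and Pomc chose the cells, so their levels are a description. The median Gh1 share was 33.8% in posterior, 32.7% in anterior and 33.8% in somatotrophs of each whole-gland lane, and the highest cell reached 71.7%. Somatotrophs held 94.5%, 92.9%, 92.3% and 92.6% of the Gh1 UMIs of all kept barcodes in these 4 libraries. In folliculostellate cells, the S100b-positive non-hormone cells, Gh1 made up 0.0485% of the UMIs of the posterior library, 0.239% of the anterior library, and 0.153% and 0.194% in the lanes. Prl made up 0.168%, 0.496%, 0.464% and 0.419% of somatotroph UMIs in the posterior library, the anterior library and lanes 1 and 2. In folliculostellate cells it made up 0.171%, 0.633%, 0.598% and 0.532%. The median depths of these folliculostellate cells were 11148, 6981, 6745 and 6896 UMIs. Just inside the limit, 138 cells had a Gh1 share of 15 to 17%, and just outside, 129 otherwise eligible cells had 13 to 15%. A further 67 barcodes passed the Gh1 limit but had 5% or more Prl, and 19 passed it with 5% or more Pomc. Of the somatotrophs, 67 scored above 0.25 on the doublet caller Scrublet, and 2 had a barcode sequence that occurred among the somatotrophs of another library, out of 70 such kept barcodes.

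**Figure D1:**
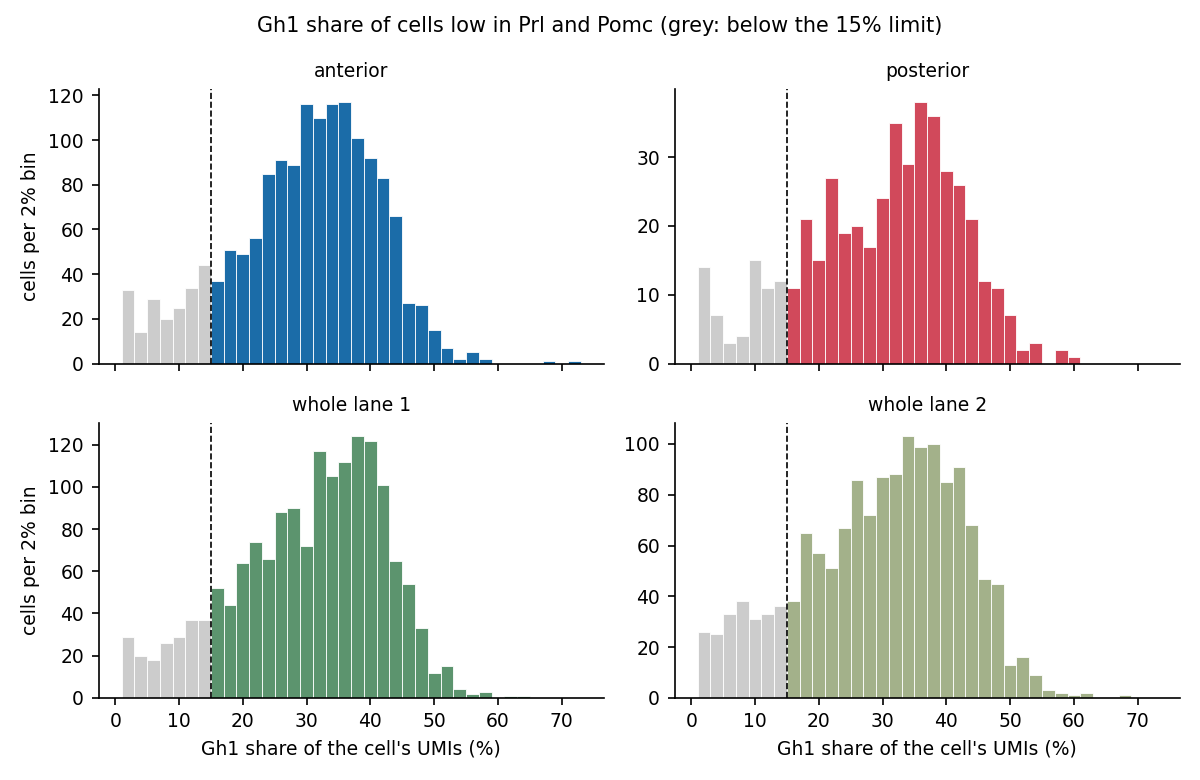
Number of cells (vertical axis, per 2% bin) by Gh1 share of the cell's UMIs (horizontal axis, percent, from 1%) in each of the 4 libraries, for kept cells with under 5% Prl and under 5% Pomc. Coloured bars are somatotrophs, grey bars lie below the 15% limit drawn as a dashed line, and in each library the coloured bars form 1 broad hump around the medians of 32.7 to 33.8%.

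The other markers of the cell type, Ghrhr, Dlk1, Arhgap36 and Abcc8, took no part in the rule. Levels are CPM, the gene's UMIs scaled to a common total for each sum of cells, after leaving out the 12 genes that chose any class. Ghrhr, the GHRH receptor, had 85.2 CPM in posterior, 89.7 CPM in anterior, and 84.3 and 83.4 CPM in whole-gland somatotrophs, against 0.295, 0.537, 0.474 and 0.670 CPM in lactotrophs of the same libraries. The 4 somatotroph values lay close together and far above every lactotroph value. In the test, which compares sums of UMIs per class in 2 preparations (the anterior library of the dissected glands, and both whole-gland lanes together), Ghrhr was higher in somatotrophs by 7.08 on the log2 scale (SE 0.15, edgeR adjusted p = 4.72e-17). Thyrotrophs, with 33 and 49 cells, held 1 Ghrhr UMI in both preparations together.

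Ghrhr receives the hypothalamic signal that drives this cell type, and its promoter windows are shown for that reason, with that of Pappa2, which is described after them. RefSeq (build GRCr8) annotates 2 starts on chromosome 4, plus strand, and each window runs from 250 bases before to 50 bases after the start. Capitals would mark the letters TATNCAT on either strand, the core of the Pit-1 recognition sequence; neither window holds them. The annotated starts may lie upstream of the start used in the pituitary, so these windows may not be the promoters in use there. The last window, of Pappa2 on chromosome 13, minus strand, holds 2 matches, in capitals.

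Ghrhr, chr4:85830236-85830535: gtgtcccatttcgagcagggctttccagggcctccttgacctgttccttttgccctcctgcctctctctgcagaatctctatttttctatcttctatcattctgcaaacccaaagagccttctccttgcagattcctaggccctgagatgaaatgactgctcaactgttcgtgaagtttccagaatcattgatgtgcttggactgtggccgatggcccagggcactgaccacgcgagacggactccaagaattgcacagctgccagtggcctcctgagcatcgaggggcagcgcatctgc
Ghrhr, chr4:85849655-85849954: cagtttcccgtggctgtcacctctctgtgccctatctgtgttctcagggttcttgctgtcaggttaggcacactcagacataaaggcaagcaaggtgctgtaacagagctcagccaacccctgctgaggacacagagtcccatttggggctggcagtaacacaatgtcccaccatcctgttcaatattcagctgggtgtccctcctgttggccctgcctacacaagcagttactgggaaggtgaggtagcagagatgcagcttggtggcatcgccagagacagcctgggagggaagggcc
Pappa2, chr13:73681519-73681818: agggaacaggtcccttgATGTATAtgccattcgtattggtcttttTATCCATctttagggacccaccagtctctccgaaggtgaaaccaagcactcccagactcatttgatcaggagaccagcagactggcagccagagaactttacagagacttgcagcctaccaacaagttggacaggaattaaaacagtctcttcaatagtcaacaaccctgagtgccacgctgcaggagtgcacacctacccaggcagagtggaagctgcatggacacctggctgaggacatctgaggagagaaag

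TATNCAT occurred in 9.88% of the 33469 promoter windows of the table. By gene, it occurred in 5.40% of 630 matched genes higher in somatotrophs than in lactotrophs, in 5.04% of 1112 matched lower genes and in 4.06% of 9775 matched tested genes. Of the 99 matched genes chosen for naming, 3 held it (3.03%), and Pappa2 is 1 of these 3. The windows do not cover distal enhancers, and a match or its absence says nothing about binding.

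Pappa2 encodes a protease that cleaves IGF binding proteins and so frees IGF. It had 42.0 CPM in posterior, 44.2 CPM in anterior, and 46.2 and 51.2 CPM in whole-gland somatotrophs, against 0, 0.0488, 0.237 and 0.402 CPM in lactotrophs of the same libraries. It was higher than in lactotrophs by 7.55 on the log2 scale (SE 0.26, adjusted p = 3.66e-13). Across the mean levels of lactotrophs, thyrotrophs, corticotrophs and gonadotrophs it did not exceed 0.577 CPM.

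Dlk1, an imprinted growth regulator, had 4245, 3886, 4286 and 4270 CPM in somatotrophs of the posterior library, the anterior library and lanes 1 and 2, against 478, 520, 473 and 537 CPM in lactotrophs. The log2 difference was 2.84 (SE 0.15, adjusted p = 8.64e-12). Thyrotrophs stood between, with 1552, 1709, 1062 and 1139 CPM, and the log2 difference from them was 1.65 (SE 0.15, adjusted p = 2.45e-07). Arhgap36, an inhibitor of protein kinase A, had 452 to 508 CPM in somatotrophs of the 4 libraries against 18.7 to 28.2 CPM in lactotrophs, a log2 difference of 4.42. Abcc8, the sulfonylurea receptor subunit of ATP-sensitive potassium channels, had 117 to 129 CPM against 7.98 to 13.5 CPM, a log2 difference of 3.31. Both were also higher than in thyrotrophs, by 3.06 and 1.41 on the log2 scale. Among the other 4 hormone classes, the highest mean level was 1.16 CPM of Ghrhr (gonadotrophs) and, in thyrotrophs, 1405 CPM of Dlk1, 60.4 CPM of Arhgap36 and 54.6 CPM of Abcc8, so that somatotrophs held the highest level of all 4 markers.

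Somatotrophs were then set against lactotrophs, the other large Pou1f1 class. Of 14492 genes tested, 1129 were higher (7.79%) and 1682 lower (11.6%) in somatotrophs at an adjusted p under 0.05 and a log2 difference of at least 1. Among called genes with at least 50 CPM in both preparations of the higher class, Ghrhr was followed by Wfdc1 (a secreted protease-inhibitor-like protein, log2 difference 5.61), Ffar4 (a receptor for long-chain fatty acids, 5.52), Ramp1 (an accessory protein of the CGRP receptor, 5.27), Pgm5 (5.02), Tent5c (a poly(A) polymerase, 4.55), Arhgap36 and Sytl4 (granuphilin, a Rab27 effector on secretory granules, 4.29). The largest lower genes under the same limit were Sostdc1 (a BMP and Wnt antagonist, -7.42), Irx6 (-7.36), Krt25 (-7.30), Cartpt (a neuropeptide precursor, -7.11), Klk1 (tissue kallikrein, -6.87), Agtr1b (an angiotensin II receptor, -6.76), Rprm (-6.75) and Drd2 (the dopamine D2 receptor that restrains prolactin release, -6.68). Each of these 16 genes had an adjusted p of 9.5e-13 or smaller. The call and the same direction in both preparations were conditions for being named here, so they are not a further result.

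Drd2 had 0.805 CPM in somatotrophs of the dissected and 0.690 CPM in those of the whole glands, against 71.3 and 66.4 CPM in lactotrophs. Wfdc1 had 192 and 196 CPM in somatotrophs against 4.49 and 2.83 CPM in lactotrophs. Both genes were chosen for a large change with the same direction in both preparations, so the gap between the groups is a description.

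**Figure D2:**
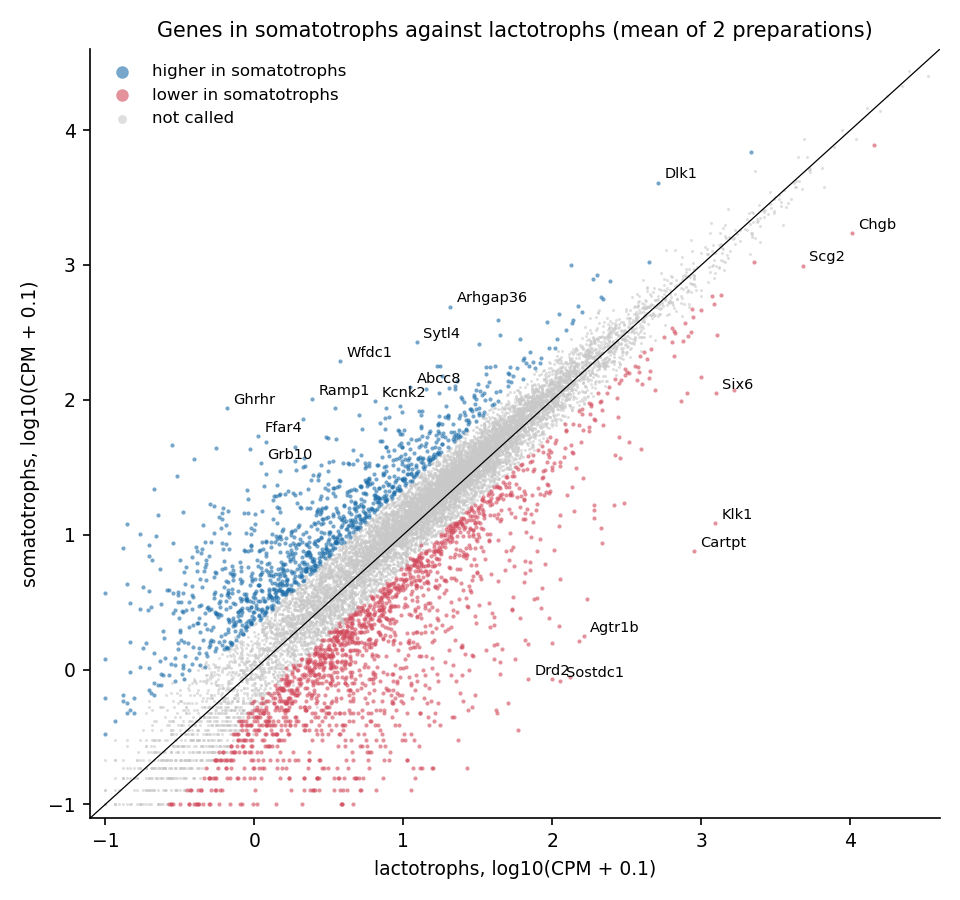
Each point is 1 of the 14492 tested genes, with its level in somatotrophs (vertical axis) against lactotrophs (horizontal axis), both as log10(CPM + 0.1) of the mean over 2 preparations, and the line marks equal levels. Blue points are the 1129 higher and red points the 1682 lower genes, with Ghrhr and Wfdc1 far above the line and Cartpt and Klk1 far below it.

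Among 36 tested genes of GHRH and cyclic AMP signalling (of 38 listed), 6 were higher (16.7%) and 4 lower (11.1%) than in lactotrophs. Their median log2 difference was 0.23, against -0.03 over all genes. The shares over all genes, 7.79% higher and 11.6% lower, are the background for this and the following lists against lactotrophs. The higher genes were Ghrhr, Arhgap36, the adenylyl cyclases Adcy2 and Adcy7, the cyclic AMP sensor Rapgef3 and the phosphodiesterase Pde10a. Adcy2 had 20.1 and 19.7 CPM in somatotrophs of the dissected and whole glands against 1.32 and 1.48 CPM in lactotrophs. Gnas, which encodes the stimulatory G protein alpha subunit, was lower, with 7570 and 7898 CPM in somatotrophs against 12967 and 15643 CPM in lactotrophs (log2 difference -1.05, SE 0.07, adjusted p = 6.08e-10). The Gnas difference became -0.99, just short of the size limit, when only cells with at least 30% Gh1 were taken. Prkar1a, a regulatory subunit of protein kinase A, differed by 0.45 and was not called.

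Of 27 tested receptors for hypothalamic and gut signals (39 listed), 8 were higher (29.6%) and 11 lower (40.7%) than in lactotrophs, with a median of -0.16. Among somatostatin receptors, Sstr5 had 16.2 CPM in posterior, 11.8 CPM in anterior, and 11.9 and 11.6 CPM in whole-gland somatotrophs, against 0, 0.0488, 0.0592 and 0 CPM in lactotrophs. The lactotrophs of the 2 preparations held 2 Sstr5 UMIs, and the ratio was 309 (exact 95% counting interval 84.7 to 2561). Sstr2 had 13.8, 16.3, 21.3 and 18.02 CPM in somatotrophs of the posterior library, the anterior library and the lanes, against 0.443, 0.781, 1.42 and 2.01 CPM in lactotrophs, a log2 difference of 3.63 (SE 0.20, adjusted p = 2.85e-11). Thyrotrophs had more Sstr2 than somatotrophs, which had 16.3 and 19.7 CPM in the dissected and whole glands against 41.8 and 38.1 CPM in thyrotrophs. That difference of -1.03 passed the test (adjusted p = 0.036) but was lost, among others, without either whole-gland lane (adjusted p = 0.101 and 0.0543) and had the opposite sign in cells with at most 10% mitochondrial UMIs.

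Sstr3 had 14.3 and 14.4 CPM in somatotrophs against 14.2 and 11.2 CPM in lactotrophs, a difference of 0.04 (SE 0.13) that was not called and changed sign under other settings. Sstr1 was near 0, with 0.345 and 0.460 CPM in somatotrophs against 0 and 0.0943 CPM in lactotrophs, and its call was lost under 4 of the alternative settings. Ghsr, the ghrelin receptor, had 8.05 and 10.4 CPM in somatotrophs against 1.17 and 1.67 CPM in lactotrophs (log2 difference 2.52, SE 0.26, adjusted p = 4.14e-07) and no UMI in thyrotrophs or gonadotrophs. Ramp1 had 88.9 and 112 CPM against 2.34 and 2.36 CPM. Trhr, the receptor for the hypothalamic TRH that drives thyrotrophs and lactotrophs, had 0.460 and 0.230 CPM in somatotrophs against 25.7 and 16.8 CPM in lactotrophs. Gpr101 was too low to be tested (0 and 0.173 CPM in somatotrophs), and Gabbr1 did not pass (-0.16).

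**Figure D3:**
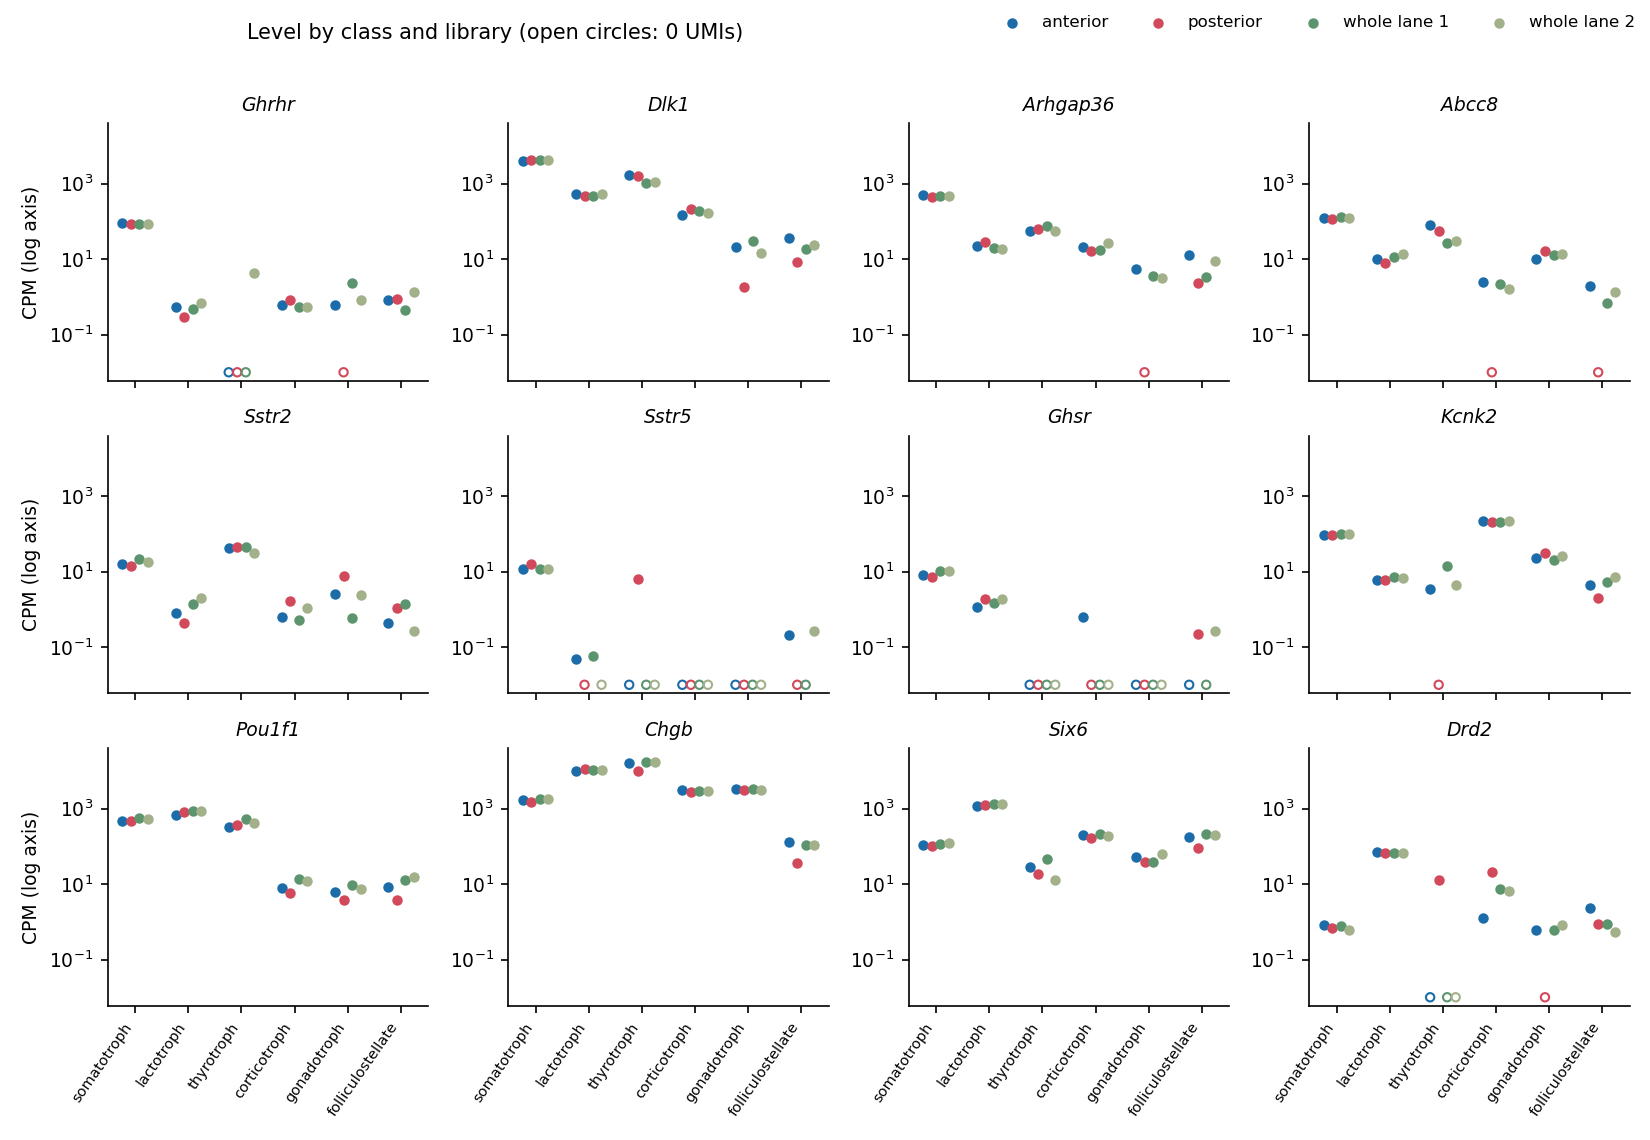
Level in CPM (vertical axis, log scale) of 12 genes in 6 cell classes (horizontal axis), with 1 point per library in the 4 colours of the legend and open circles at the bottom for 0 UMIs. Ghrhr, Sstr5 and Ghsr stand highest in somatotrophs in each library, Sstr2 is higher in thyrotrophs, Kcnk2 is higher in corticotrophs, and Drd2 and Six6 stand highest in lactotrophs.

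Genes of growth hormone and IGF feedback did not move one way. Of 18 tested (20 listed), 5 were higher (27.8%) and 5 lower (27.8%) than in lactotrophs, with a median of -0.01. Ghr, the growth hormone receptor, had 4.49 and 6.79 CPM in somatotrophs of the dissected and whole glands against 0.635 and 0.975 CPM in lactotrophs (log2 difference 2.63, SE 0.27). The cytokine-signalling inhibitors Socs1, Socs2, Socs3 and Cish were higher too, Socs3 by 1.18 with 614 and 498 CPM against 234 and 203 CPM, and Cish by 2.60. Igf1 was lower, with 21.5 and 19.95 CPM in somatotrophs against 96.6 and 84.3 CPM in lactotrophs (-2.29, SE 0.10), as were Irs1 and the IGF binding proteins Igfbp3, Igfbp4 and Igfbp5. The Igfbp5 difference of -1.15 fell short of the limit with a Gh1 limit of 10% (-0.63) and with at most 10% mitochondrial UMIs (-0.98). Igf1r and Irs2 were not called, at -0.42 and 0.15.

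Of 34 tested transcription factors of the pituitary (42 listed), 2 were higher (5.88%) and 14 lower (41.2%) than in lactotrophs, with a median of -0.78. Pou1f1 had 482 and 545 CPM in somatotrophs against 668 and 867 CPM in lactotrophs, a difference of -0.73 (SE 0.08, adjusted p = 3.8e-07) below the size limit, while corticotrophs had 7.99 and 12.9 CPM and gonadotrophs 6.18 and 8.48 CPM. Gata2, a partner of Pou1f1 in thyrotrophs, had 14.0 and 20.7 CPM in somatotrophs against 2.44 and 2.23 CPM in lactotrophs (2.77, SE 0.24), and Foxo1 was higher by 1.10. Lhx3 (-4.11) and Six6 (-3.64) were among the lower genes, Six6 with 108 and 117 CPM in somatotrophs against 1143 and 1362 CPM in lactotrophs. Neurod4 (-0.18), Zbtb20 (0.38) and Egr1 (0.79) were not called.

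Of 20 tested nuclear receptors (22 listed), 2 were higher and 5 lower. Rxrg, a retinoid X receptor, had 12.2 and 9.89 CPM in somatotrophs against 0.391 and 0.597 CPM in lactotrophs (4.20, SE 0.28), but thyrotrophs had 83.5 and 65.0 CPM. Nr4a1 and Nr4a2, orphan receptors that are also immediate early genes, were lower, with log2 differences of -1.17 and -1.26. Thrb and Esr1 were not called, at 0.18 and -0.70.

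Of 25 tested genes of granule cargo and prohormone processing (30 listed), 3 were higher and 8 lower than in lactotrophs, with a median of -0.59. Chgb, chromogranin B, had 1684 and 1767 CPM in somatotrophs against 10167 and 10454 CPM in lactotrophs (-2.74, SE 0.08), and Scg2, secretogranin II, had 925 and 1056 CPM against 4198 and 5432 CPM (-2.44, SE 0.13). Chga, chromogranin A, was higher, with 1045 and 1073 CPM against 463 and 432 CPM (1.08, SE 0.12). The peptide precursors also parted, with Tac1 higher by 4.05 and Gal (galanin) at -3.91 and Cartpt at -7.11. Resp18 (0.66), Scg5 (-0.17) and the processing enzyme Pcsk1 (-0.35) were not called.

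Of 38 tested genes of vesicle fusion (40 listed), 4 were higher (10.5%) and 5 lower (13.2%), near the shares of 7.79% and 11.6% over all genes. Sytl4 had 246 and 292 CPM in somatotrophs against 11.8 and 12.6 CPM in lactotrophs, while Rab27b, a small GTPase of the family that granuphilin binds, had 12.5 and 17.7 CPM against 70.8 and 84.0 CPM. Syt5 (2.46) and Rab3b (1.49) were higher, and Syt4 and Syt7 did not pass. Of 45 tested ion channel genes (50 listed), 9 were higher and 8 lower. The potassium channel Kcnk2 (TREK-1) had 94.5 and 100 CPM in somatotrophs against 5.91 and 6.82 CPM in lactotrophs (3.76, SE 0.10). Kcnj11, which forms the pore that Abcc8 regulates, had 8.63 and 7.99 CPM against 1.90 and 1.67 CPM (2.05, SE 0.23), and the T-type calcium channels Cacna1g (1.85) and Cacna1i (1.68) were higher. Kcnk1, at 0.02, was not called.

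Of 17 tested imprinted or growth-linked genes (28 listed), 6 were higher (35.3%) and 4 lower (23.5%). Grb10, an adaptor that restrains insulin and IGF-1 receptor signalling, had 35.4 CPM in posterior, 35.4 CPM in anterior, and 32.3 and 32.7 CPM in whole-gland somatotrophs, against 0.443, 1.12, 1.07 and 0.670 CPM in lactotrophs (4.92, SE 0.18, adjusted p = 2.43e-13). Plagl1 was higher by 1.59, and Peg3 (0.24) was not called.

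Of 35 tested genes of ER folding (36 listed), 0 were higher and 6 lower (17.1%) by both edgeR and DESeq2, with 27 at an unadjusted p under 0.05. The lower ones included Ssr4 (-1.25), Selenom (-1.22) and Sec11c (-1.03), while the chaperone Hspa5 (-0.16) and Sec61b (-0.08) were not called. Of 29 tested nuclear genes of oxidative phosphorylation (32 listed), 0 were called in either direction by edgeR or DESeq2, with 15 at an unadjusted p under 0.05. Of these, Ndufa4 differed by -0.07, Atp5mc1 by 0.20 and Cox4i1 by 0.12. Of 24 tested immediate early and dissociation genes (26 listed), 1 (Socs3) was higher (4.17%) and 4 were lower (16.7%), and Fos (0.34), Junb (-0.02) and Btg2 (0.02) were not called. Of 23 tested cell cycle genes (25 listed), 0 were higher and 11 lower by edgeR, and 4 were lower by DESeq2; 16 had an unadjusted p under 0.05. Top2a had 4.03 and 11.9 CPM in somatotrophs against 18.4 and 19.6 CPM in lactotrophs (-1.35, SE 0.26, adjusted p = 0.000347; 0.151 by DESeq2). Stmn1 (-0.20), Pcna (0.12) and Mcm2 (0.15) were not called.

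Thyrotrophs are the rarest relatives here, so this comparison rested on 82 of their cells and on few UMIs. Of 14492 genes, 896 were higher (6.18%) and 885 lower (6.11%) in somatotrophs, that is, 50.3% of the calls were higher. The median over all genes was 0.18 by edgeR and 0.003 by DESeq2, which gave 540 higher and 1153 lower genes (31.9% higher). C2cd4a, Cdkn2a and Ffar4 had no UMI in thyrotrophs. Against a floor of 3 UMIs over both preparations they were at least 21.4-fold, 14.5-fold and 13.3-fold higher in somatotrophs, with 83.7 and 89.4 CPM of C2cd4a, 60.3 and 58.6 CPM of Cdkn2a (a cyclin-dependent kinase inhibitor locus) and 52.3 and 55.6 CPM of Ffar4. Ghrhr and the Wnt ligand gene Wnt10a each had 1 thyrotroph UMI, with ratios of 62.9 (exact 95% counting interval 11.3 to 2487) and 56.9 (10.2 to 2248). The largest lower genes were Alkal2 (-9.01), Dpp10 (-8.22), Bmp15 (-7.63), Trhr (-7.52) and Kcnk9 (-7.35). Gata2 (-2.97) and Rxrg (-2.66), both higher in somatotrophs than in lactotrophs, were lower than in thyrotrophs, and both calls were lost with at most 10% mitochondrial UMIs (adjusted p = 0.0884 and 0.208).

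Of 24 tested immediate early genes, 14 were higher than in thyrotrophs and 0 lower by edgeR, 12 were higher and 1 lower by DESeq2, and 20 had an unadjusted p under 0.05, with a median of 1.10 against 0.18 over all genes. Fos had 6552 and 6076 CPM in somatotrophs of the dissected and whole glands against 717 and 2099 CPM in thyrotrophs (2.23, SE 0.24, adjusted p = 1.22e-06), and Socs3 had 614 and 498 CPM against 24.4 and 44.9 CPM (3.97, SE 0.17). Median mitochondrial shares were 7.604% in anterior somatotrophs against 12.4% in anterior thyrotrophs; their part in this difference was not tested. Of 25 tested genes of granule cargo, 1 was higher (Gal) and 13 lower, Chgb by -3.17 and Scg2 by -2.63.

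Against the mean of the 4 other hormone classes (log2 levels of lactotrophs, thyrotrophs, corticotrophs and gonadotrophs averaged with equal weight), 1228 genes were higher (8.47%) and 875 lower (6.04%), so that 58.4% of the calls were higher. DESeq2 gave 1044 higher and 1233 lower (45.8% higher). The largest higher genes were Cdkn2a (6.84), Ghrhr (6.58), Krt79 (5.87), Ffar4 (5.68), Arhgap36 (4.69), Enpep (aminopeptidase A, 4.58), Pgm5 (4.43) and Clec2l (4.25). Cdkn2a and Ffar4 had no UMI in thyrotrophs and Krt79 none in gonadotrophs, so these 3 fitted values depend on how a count of 0 is treated. A mean also covers classes of unequal level. Ffar4 had 54.0 CPM in somatotrophs and 59.4 CPM in corticotrophs, and C2cd4a 86.6 CPM against 80.0 CPM in corticotrophs. Cdkn2a had 59.4 CPM in somatotrophs against at most 9.10 CPM in any of the 4 classes, Krt79 66.3 CPM against at most 16.9 CPM, Enpep 59.6 CPM against at most 9.95 CPM, and Grb10 34.0 CPM against at most 2.96 CPM. The highest of the other classes was the corticotrophs for Grb10 and the lactotrophs for the other genes of that sentence.

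Among the largest lower genes in that comparison were Rgs4 (-5.25), Pak3 (-4.34), the homeobox gene Isl1 (-4.14), Foxl2 (-3.61), Nell2 (-3.57), Calml4 (-3.34) and Tgfbr3l (an inhibin B co-receptor of gonadotrophs, -3.30). Tgfbr3l was carried by gonadotrophs, at 5802 CPM, and its call was lost with at most 10% mitochondrial UMIs (-0.12). Pou1f1 was higher by 2.84 and Neurod4 by 1.002, the second just at the limit and under it by DESeq2 (0.96), with RLE scaling (0.95) and without whole-gland lane 1 (0.91). Neither was highest in somatotrophs. Pou1f1 had 514 CPM there against 767 CPM in lactotrophs, and Neurod4 had 105 CPM against 236 CPM in gonadotrophs. Of the 23 tested cell cycle genes, 9 were higher than this mean and 0 lower by edgeR, 5 were higher and 0 lower by DESeq2, and 13 had an unadjusted p under 0.05, with a median of 1.65 against 0.08 over all genes. In the comparison with thyrotrophs, 9 of these 23 genes had a class at 0 UMIs, so that fitted values of this list depend on how a count of 0 is treated. Creb3l1, an ER-resident transcription factor of secretory cells, was higher by 1.71 (SE 0.09), with 162 CPM in somatotrophs, 165 CPM in lactotrophs and 3.60 CPM in corticotrophs.

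Somatotrophs also differed among themselves. Within each library they were cut into 4 equal groups by their Gh1 share, here called quartiles, and the highest was tested against the lowest quartile over the same 2 preparations, with a size limit of 0.5. Of 11757 genes tested, 396 were higher (3.37%) and 693 lower (5.89%) in the highest quartile. Median Gh1 shares were 42.6% in the highest and 22.0% in the lowest quartile of the anterior library, and median depths were 11705 and 7341 UMIs, but 6645 and 5779 without Gh1. Median mitochondrial shares there were 6.19% and 9.42%. Total depth and mitochondrial share moved with the Gh1 share in each library. Depth without Gh1 was higher in the highest than in the lowest quartile of each library. It did not climb at each step in the anterior and posterior libraries, with 9916, 11189, 11252 and 10200.5 UMIs from lowest to highest in the posterior library. The part of these values in the differences was not tested.

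Among the largest higher genes, Kdelr3, a receptor that returns chaperones to the ER, had 109 and 105 CPM in the highest quartile of the dissected and whole glands against 27.7 and 33.1 CPM in the lowest (1.76, SE 0.11, adjusted p = 2.08e-13). The quartiles between had 55.03 and 81.7 CPM in the dissected glands and 46.2 and 64.6 CPM in the whole glands, so that the level climbed at each step in both. Copz2, a subunit of the COPI coat, had 220 and 230 CPM in the highest against 86.0 and 82.0 CPM in the lowest quartile (1.43, SE 0.07). Cyb561d2 (1.61), Wnt10a (1.29), C2cd4a (1.26) and Pappa2 (1.23) followed, Pappa2 with 64.1 and 69.0 CPM against 18.3 and 34.1 CPM.

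The shares over all genes, 3.37% higher and 5.89% lower in the highest quartile, are the background for the list counts here. Of 34 tested genes of ER folding (36 listed), 3 were higher (8.82%) and 0 lower. These were Creb3l1 (1.03, SE 0.07, with 223 and 185 CPM in the highest against 102 and 93.4 CPM in the lowest quartile), Selenom (0.57) and Creb3l2 (0.50), the last of them not called by DESeq2 (adjusted p = 0.247), without the replicate block (0.0515) or without sub-clusters 3, 5 and 6 (0.44). DESeq2 called 2 higher and 0 lower, and 22 had an unadjusted p under 0.05. Hspa5 was not called, with 1721 and 1438 CPM in the highest against 1686 and 1401 CPM in the lowest quartile (0.02, SE 0.03). Of 34 tested genes of vesicle fusion (40 listed), 2 were higher (5.88%) and 0 lower by edgeR. They were Rab3d (1.0) and Syt13 (0.54, but not by DESeq2, adjusted p = 0.195, and at 0.49 without sub-clusters 3, 5 and 6). DESeq2 called 1, and 10 had an unadjusted p under 0.05. Of 23 tested genes of granule cargo (30 listed), Ptprn (0.56), Pcsk1 (0.66) and Tac1 were higher and 3 were lower. The Ptprn difference was 0.4977 without sub-clusters 3, 5 and 6. The Pcsk1 call was lost with DESeq2 (adjusted p = 0.247), without the replicate block (0.0524) and with at most 10% mitochondrial UMIs (0.0721).

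Among the markers, Abcc8 was higher by 0.65 (SE 0.08), with 144 and 150 CPM in the highest against 92.6 and 94.6 CPM in the lowest quartile. Ghrhr was higher by 0.54, with 102 and 98.7 CPM against 71.4 and 66.6 CPM, and Dlk1 by 0.54, with 4640 and 5015 CPM against 3108 and 3496 CPM. Ghrhr stood below the size limit with at most 10% mitochondrial UMIs (0.37), and both did when sub-clusters 3, 5 and 6, described next, were left out (0.45 and 0.44). Arhgap36 (0.28) and Pou1f1 (0.43) were below it. Plagl1 (0.95) and Ffar4 (0.87) were higher, and Kcnj11 was higher by 1.45 but not by DESeq2 (adjusted p = 0.195). Sstr2 (0.66) and Sstr3 (0.76) passed narrowly; Sstr2 was lost by DESeq2 (adjusted p = 0.343), without the replicate block (0.136), with at most 10% mitochondrial UMIs (0.0887) and without sub-clusters 3, 5 and 6 (0.0633), and Sstr3 by DESeq2 (0.447) and without whole-gland lane 2 (0.135).

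Wfdc1 ran the other way, although it was among the largest higher genes against lactotrophs. It had 119 and 106 CPM in the highest against 290 and 315 CPM in the lowest quartile (-1.47, SE 0.07, adjusted p = 1.16e-16), with 197 and 166 CPM in the 2 quartiles between, lower before higher, of the dissected glands and 209 and 165 CPM in those of the whole glands. Kcnk2 had 81.6 and 88.8 CPM against 118 and 116 CPM (-0.45), short of the limit, which it passed without sub-clusters 3, 5 and 6 (-0.52) and without whole-gland lane 1 (-0.57). The stress gene Jun fell by 0.94 on the log2 scale, while Fos was not called (-0.05, SE 0.02, adjusted p = 0.243).

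**Figure D4:**
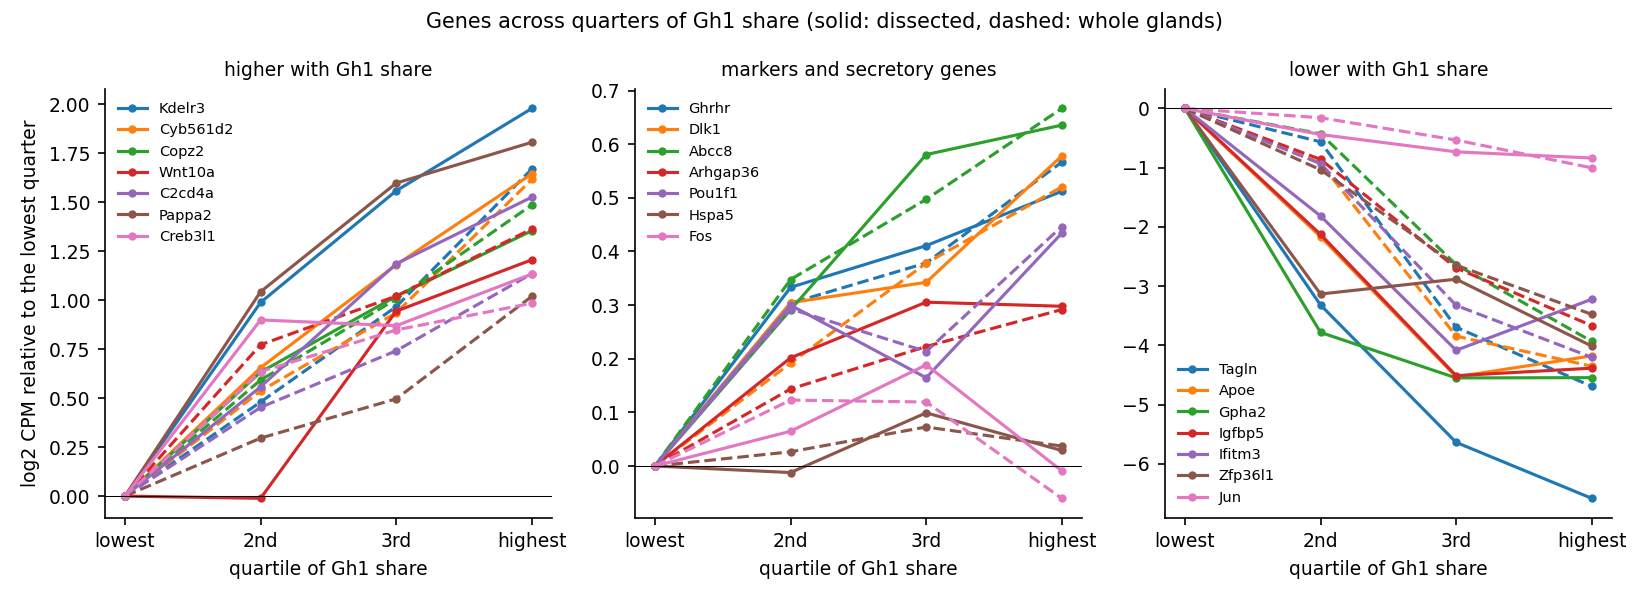
Log2 CPM relative to the lowest quartile (vertical axis) across the 4 quartiles of Gh1 share (horizontal axis, lowest to highest) for 21 genes, with solid lines for the dissected and dashed lines for the whole glands. Kdelr3, Copz2 and Pappa2 climb in both preparations, Hspa5 and Fos stay close to 0, and Apoe, Igfbp5 and Gpha2 drop by more than 3 log2 units.

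The largest lower genes in the highest quartile were Tagln (-5.29), Apoe (-4.37), Gpha2 (-4.21), Igfbp5 (-3.94), Ifitm3 (-3.89) and Zfp36l1 (-3.66). Apoe had 34.6 and 42.9 CPM in the highest against 626 and 877 CPM in the lowest quartile. RNA of some other cell types moved with these genes. The 8 measured folliculostellate markers (of 10 listed) summed to 20.3 and 25.2 CPM in the highest against 155 and 163 CPM in the lowest quartile, the 9 leukocyte markers to 21.2 and 17.8 CPM against 427 and 175 CPM, and the 5 measured gonadotroph markers (of 7) to 3.23 and 3.60 CPM against 15.98 and 21.6 CPM. None of these markers was at 0 UMIs in somatotrophs as a whole. The sum of red blood cell markers was also lower in both preparations. So was Megf11, the only 1 of 4 listed melanotroph markers that was summed, but at low levels. It had 1.84 and 2.02 CPM in the highest against 2.35 and 3.65 CPM in the lowest quartile. The sum of lactotroph markers ran the other way, with 154 and 117 CPM in the highest against 88.8 and 106 CPM in the lowest quartile. It is not a measure of lactotroph RNA alone, because Tac1, which it includes, was higher in somatotrophs than in lactotrophs. In sub-cluster 1, Angpt1 stood at 48.5 CPM and Tac1 at 28.0 CPM, but Drd2 at 0.767 CPM. Sums of corticotroph, thyrotroph, pituicyte, endothelial, fibroblast and Schwann markers differed in direction between the preparations. When sub-clusters 3, 5 and 6 were left out, a choice made after the data were seen, 415 genes were higher and 454 lower. The differences of Apoe, Gpha2, Ifitm3 and Igfbp5 then came to -0.08, -0.12, -0.14 and -0.25 and that of Zfp36l1 to 0.38, none of them called, and Tagln was too low to be tested. All of these are among the leading genes of sub-cluster 3, found from the same counts. Leaving its cells out takes away much of their RNA by choice, so this is not a separate test. The differences of Wfdc1 (-1.60) and Ffar4 (0.75) remained called. Cell cycle genes were lower as well, 12 of 20 tested by edgeR and 10 by DESeq2, with 0 higher by either and 14 at an unadjusted p under 0.05, Top2a with 0 and 0.225 CPM in the highest against 6.11 and 31.4 CPM in the lowest quartile.

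Clustering the somatotrophs on 1500 variable genes gave 6 sub-clusters, which are described by their leading genes and not tested. Sub-cluster 1 held 2642 cells, was led by Socs3, Zfp36, Fos and Junb, and made up 67.4% of posterior, 61.7% of anterior, and 57.8% and 55.3% of whole-gland somatotrophs. Fos stood at 8744 CPM there and at 1203 CPM in sub-cluster 2, which held 1565 cells, was led by Mir7a2, Mir770 and Col24a1, and had a median mitochondrial share of 9.14%, against 7.02% in sub-cluster 1. The 2 Mir names are the annotated loci; the 3' assay counts polyadenylated RNA there, not mature microRNA. Ghrhr was close in both, at 90.5 and 83.3 CPM. Sub-cluster 3 (187 cells) was led by Apoe, Igfbp5 and Gpha2, with 26.7% of its cells above the Scrublet score of 0.25, sub-cluster 5 (19 cells) by Tgfbr3l, with Gnrhr also among its leading genes. Sub-cluster 6 (9 cells) was led by Cd74 and class II genes, and 55.6% of its cells were above that score. Sub-cluster 3 made up 12.6% of posterior, 2.68% of anterior, and 3.17% and 4.24% of whole-gland somatotrophs.

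Sub-cluster 4 held 45 cells and was led by the mitotic genes Ube2c, Pttg1 and Cks2, with a Ghrhr level of 47.6 CPM. Counted directly, 27 of the 4467 somatotrophs held at least 10 UMIs of 14 mitotic genes. These were 1 of 405 cells in the posterior library (0.247%, exact 95% interval 0.00625 to 1.37%), 3 of 1345 in the anterior library (0.223%, 0.0460 to 0.650%), 10 of 1421 in lane 1 (0.704%, 0.338 to 1.29%) and 13 of 1296 in lane 2 (1.003%, 0.535 to 1.71%). Their median Gh1 share was 25.4%. The highest Gh1 quartile held none of them in any library, and in the anterior library, with 0 of 337 cells, the exact 95% interval reached 1.09%.

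Somatotrophs of the posterior library were set against those of the anterior library. Of 1545 genes with at least 100 CPM in either library, 7 were at least 2-fold higher in the posterior library (0.453%) and 2 at least 2-fold lower (0.129%). There was 1 library per lobe, so these ratios carry counting intervals and no test; between the 2 whole-gland lanes 0 of 1527 such genes differed 2-fold. Ghrhr had 85.2 CPM in posterior against 89.7 CPM in anterior somatotrophs, a ratio of 0.949 (exact 95% counting interval 0.836 to 1.08), and Pou1f1 had a ratio of 0.994 (0.942 to 1.05). Dlk1 had a ratio of 1.09 (1.07 to 1.11) and Arhgap36 one of 0.890 (0.843 to 0.939).

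Some of these differences lay in few cells. Igfbp2 had 895 UMIs in posterior against 15 UMIs in anterior somatotrophs, a ratio of 122 (73.4 to 218), and 10 posterior cells held 676 of the 895. Of the 496 posterior Hbb UMIs, 478 were in 1 cell. Ptn (ratio 5.17), Hspb1 (2.04), Apoe (2.02) and the taurine transporter gene Slc6a6 (1.89) completed the 6 largest; 2 further genes have only identifiers. Cd74 had 34 UMIs in posterior against 875 UMIs in anterior somatotrophs (ratio 0.0793), of which 10 anterior cells held 802. Igfbp5 (0.388), S100g (0.598), Gal (0.685), Clec2l (0.734) and the Mir770 locus (0.738) were the other largest lower ratios. Igfbp2 stood at 2962 CPM in posterior and 52.6 CPM in anterior folliculostellate cells. The 6 pituicyte markers, of the glia of the posterior lobe, summed to 104 CPM in posterior against 18.4 CPM in anterior somatotrophs. None was at 0 UMIs, but only 1 of the 6 reached 1 CPM in anterior somatotrophs. Over all libraries, Scn7a stood highest of these markers in sub-clusters 1 and 2, at 19.7 and 26.8 CPM, so the sum is not a measure of pituicyte RNA alone. Pomc made up 0.139% of the UMIs of posterior and 0.0207% of those of anterior somatotrophs, and the part of such RNA in these ratios was not tested. With the cells above the Scrublet score of 0.25 left out, 2 genes were 2-fold higher and 1 was 2-fold lower.

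**Figure D5:**
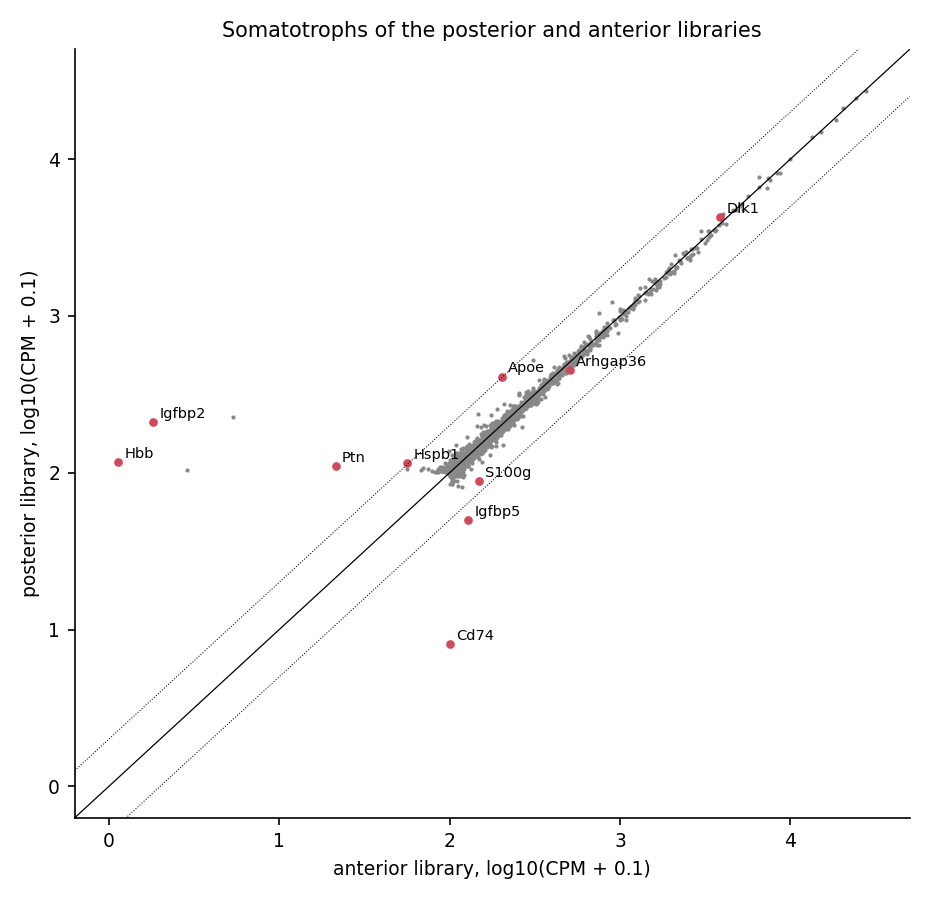
Each point is 1 of 1545 genes with at least 100 CPM in either library, with its level in posterior (vertical axis) against anterior somatotrophs (horizontal axis), as log10(CPM + 0.1). The solid line marks equal levels and the dotted lines 2-fold differences; Igfbp2, Hbb and Ptn lie above them with 2 genes known by identifier only, and Cd74 and Igfbp5 below.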

How the data were processed

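The deposited matrix holds whole-number counts of UMIs per gene and barcode for all 4 libraries, and per the submitters' processing notes its source was Cell Ranger 3.1, run on a 10x Chromium 3' v3 assay. The barcode list, a file of another kind, was deposited with suffixes that name the library per the labels. The sources used here do not give the genome build, the annotation or whether depth was equalized between libraries. Cells of 1 library are not replicates. Counts were therefore summed per class and preparation (anterior library; whole-gland lanes 1 and 2, which are technical repeats of 1 suspension), n = 2. The same animals gave all classes of a preparation, so preparation was a block. The preparations are pools of 30 animals. With preparation as a block, p-values measure only how far differences between classes or quartiles varied between the 2 pools. That spread was shared over all classes or quartiles of a fit, and it is not the spread between animals.

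The other classes needed Prl of at least 15% (lactotrophs), Pomc of at least 5% with under 3 UMIs of melanotroph genes (corticotrophs), Lhb plus Fshb of at least 1% (gonadotrophs), Tshb of at least 1% (thyrotrophs) or at least 3 UMIs each of S100b and Vim (folliculostellate cells). The 12 genes used for these rules were left out of sums and tests. edgeR 4.0.16 (TMM, filterByExpr, quasi-likelihood test) was fitted to 12 sums of 6 classes and to 8 sums of 4 Gh1 quartiles, with Benjamini-Hochberg adjustment over all genes tested. SEs are the log2 difference divided by the square root of F. "Higher" and "lower" in these comparisons mean called genes. The script was tested on simulated data. Doublets were scored with Scrublet in scanpy 1.11.5 (expected rate 0.06) and kept in the main results. Sub-clusters used 20 principal components, 15 neighbors and Leiden resolution 0.3. Where symbols repeat, the row with most UMIs keeps the name.

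The members, gene lists, tests and naming rule were chosen with earlier results of these data known. The rule named the markers, the 8 (lactotrophs, mean of 4), 5 (thyrotrophs) or 6 (quartiles, posterior) largest changes per direction with at least 50 CPM (100 CPM for posterior), of every list the 3 genes highest in CPM, and fixed genes. In the tested comparisons, the largest changes also had to be called and to have the same direction in both preparations. Other list members and Pappa2, Wfdc1 and Ffar4 in further comparisons were named after their values were seen. Alternatives were DESeq2 1.42.0, RLE scaling, no low-count filter, no block, other limits on Gh1, Prl and mitochondrial share, lanes left out, both lobes summed, and cells with high Scrublet scores left out. Promoter windows are RefSeq's (GRCr8); 99 of 126 named genes matched. Results of 2 genes that the rule or the lists named are not reported here.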

Additional observations from a re-analysis of the deposited data

How the results depend on the processing

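Of 2352 values of 190 gene results under the alternatives, 2189 were counted as unchanged. Of these, 104 were values without the anterior library, which leaves 1 preparation and no test, so only their size was compared. They moved by less than the spread between preparations, and 86 further values of that setting moved by more. That limit cannot show stability, because the whole glands are part of the fit they are set against. The values without the anterior library also lack the TMM scaling of that fit. Under the other settings, the unchanged values kept their direction and their side of the threshold, 52 lost a call, 3 gained one and 22 changed sign. Without the preparation as a replicate block, 1126 genes were higher and 1663 lower than in lactotrophs, 868 and 875 against thyrotrophs, 1215 and 867 against the mean of 4 classes, and 315 and 498 in the highest Gh1 quartile. Leaving out either whole-gland lane gave 962 to 1074 higher and 1515 to 1593 lower genes against lactotrophs, 651 to 730 and 698 to 717 against thyrotrophs, 1110 to 1181 and 717 to 760 against the mean, and 337 to 368 and 493 to 507 between quartiles. DESeq2 gave 169 higher and 221 lower genes between quartiles and 540 higher against thyrotrophs, where no low-count filter gave 1463. With at most 10% mitochondrial UMIs, 589 genes were higher and 276 lower than in thyrotrophs, and 412 were lower than the mean. Without sub-clusters 3, 5 and 6, 454 genes were lower in the highest quartile. The somatotroph share of the posterior library, the anterior library and lanes 1 and 2 was 6.76, 14.7, 15.9 and 15.99% at a Gh1 limit of 30%, and 15.1, 27.3, 27.7 and 28.9% with at most 10% mitochondrial UMIs. At a Gh1 limit of 10% it was 25.3, 26.4 and 27.3% in the anterior library and the lanes. Between the posterior and anterior libraries, 2 genes were 2-fold higher and 1 lower without high Scrublet scores, and 4 and 1 without these sub-clusters. Signs changed mainly near 0. Against lactotrophs, Btg2 was -0.019 by DESeq2, -0.016 with RLE scaling, -0.126 with both lobes, -0.052 without the filter and -0.028 without the sub-clusters. Kcnk1 was -0.021, -0.018, -0.038 and -0.051 under the first 4 of these settings, -0.0024 at a Gh1 limit of 10%, and -0.019 to 0.25 with a preparation or lane left out. Sstr3 was -0.0034 by DESeq2, -0.011 with both lobes, -0.022 without the filter, -0.018 at that Gh1 limit, and -0.019 to 0.37 with a preparation or lane left out. The 0.25 of Kcnk1 and the 0.37 of Sstr3 are values of the whole glands alone, without TMM scaling. With at most 10% mitochondrial UMIs, Junb was 0.011 against lactotrophs, Sstr2 1.14 against thyrotrophs and Hspa5 -0.082 between quartiles. Between quartiles, Fos was 0.0065 without high Scrublet scores and 0.020 without the sub-clusters, and Zfp36l1 was 0.38 without them. The causes were not tested. The thyrotroph comparison had 1595 genes with a group at 0.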
